A study of Mus musculus with 12 samples.

Results

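Mouse hypothalamic mHypoE-46 cells given only vehicle were compared at 24 h and at 4 h after the vehicle was added, which sets microRNA (miRNA) abundance at a later and an earlier time in culture side by side when no insulin was present. The comparison rests on 6 of the 12 libraries of the study, chosen by their labels: 3 of vehicle at 24 h and 3 of vehicle at 4 h. The remaining 6 libraries, 3 of 100 nM insulin at 4 h and 3 at 24 h, served as a second time course and as a source for the estimate of spread. mHypoE-46 is an immortalised line of neurons from the embryonic mouse hypothalamus, labelled as male and as expressing neuropeptide Y and agouti-related peptide. It is a single established line, so differences between lines are not sampled. The cells grew in DMEM with fetal bovine serum and antibiotics, the vehicle was phosphate buffered saline, and total RNA with the small RNAs retained was extracted at each time. The labels do not say whether the medium was renewed with the vehicle, and no library from the moment of treatment was analysed here. The design text states independent replication of the experiment, so the 3 libraries of a group are taken as separate cultures. A NanoString nCounter panel counted one barcode per bound miRNA without amplification.

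In these 6 libraries the counts of mouse miRNAs totalled between 142158 and 213462 at 4 h and between 180539 and 269357 at 24 h. Of the 566 mouse miRNA probes, 34.5% lay above the negative control mean plus 2 SD of their library in at least 3 of the 12 libraries and were tested, and the other 371 were not. All 4 h libraries ran in the lower lanes of the cartridge (vehicle in lanes 1, 3 and 5) and all 24 h libraries in the upper lanes (vehicle in lanes 7, 9 and 11). Culture time and lane block therefore cannot be told apart in any value below. The neuronal label was checked against 14 neuron-enriched miRNAs. Of these, 7 were above the threshold in at least one vehicle library and were tested, against 34.5% tested of all mouse probes. miR-9 led with 1063 to 1537 counts and was above it in 6 of 6. The others were above it in 1 (miR-153) to 5 (miR-218) of 6, at 49 to 133 counts. miR-124, the most abundant miRNA of mature neurons, was above it in 0 of 6 at 44 to 95 counts. By the same rule 4 of 9 liver and muscle, 4 of 10 epithelial and 2 of 9 myeloid and blood markers were above it. So were 2 of 7 mesenchymal, 1 of 3 glial and 1 of 2 endothelial markers. The summed abundance of the neuronal list, with those not above the threshold included, was 10916 to 11116 CPM at 4 h and 10441 to 10975 CPM at 24 h. CPM is the count per 1000000 mouse miRNA counts after TMM scaling of the libraries.

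A mature miRNA guides the Argonaute protein to messenger RNAs, mostly through its seed, the short stretch near its 5′ end, and lowers their stability and translation. Members of a family share a seed and so a large part of their targets, while miRNAs of a genomic cluster can be cut from one primary transcript. Mature miRNAs are often long-lived, so their levels reflect processing and decay as well as transcription.

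The sequences below are those of the seed families whose members had like or unlike values over culture time, with miR-223, whose value was farthest from 0, and capitals mark the seed, bases 2 to 8. They are RefSeq sequences, 5′ to 3′, with positions on the mouse build GRCm38.p6. The probe names carry no arm for most miRNAs, so the arm shown is the one the plain name conventionally stands for.
let-7a: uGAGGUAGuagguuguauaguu
let-7b: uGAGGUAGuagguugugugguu
let-7c: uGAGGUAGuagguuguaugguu
let-7e: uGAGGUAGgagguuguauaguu
miR-29a: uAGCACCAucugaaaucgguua
miR-29b: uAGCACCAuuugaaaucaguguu
miR-29c: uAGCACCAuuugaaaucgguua
miR-15a: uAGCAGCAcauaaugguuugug
miR-16: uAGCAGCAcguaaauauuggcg
miR-322: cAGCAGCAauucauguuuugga
miR-17: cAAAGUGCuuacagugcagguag
miR-106a: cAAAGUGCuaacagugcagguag
miR-221: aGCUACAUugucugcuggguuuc
miR-222: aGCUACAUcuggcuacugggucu
miR-26a: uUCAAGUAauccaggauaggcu
miR-26b: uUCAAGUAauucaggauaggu
miR-223: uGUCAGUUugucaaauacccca
The seed GAGGUAG was shared by 6 looked-up let-7 members, AGCACCA by the 3 miR-29 members, AGCAGCA by miR-15a, miR-15b, miR-16 and miR-322, AAAGUGC by 5 members of the miR-17 family, and GCUACAU by miR-221 and miR-222. miR-29a lies at chr6:31062673-31062694 on the minus strand and a copy of miR-29b close by at chr6:31063025-31063047 on the minus strand, while the second copy of miR-29b, at chr1:195037091-195037113 on the plus strand, neighbours miR-29c at chr1:195037600-195037621 on the plus strand. let-7b lies at chr15:85707325-85707346 on the plus strand, beside a copy of let-7c at chr15:85706616-85706637 on the plus strand. miR-221 and miR-222 lie at chrX:19146307-19146329 on the minus strand and chrX:19146901-19146923 on the minus strand. miR-223 lies at chrX:96242884-96242905 on the plus strand. All these positions are those of the mature sequence within its hairpin gene.

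Without insulin, the 24 h libraries lay above the 4 h libraries for miR-29b, miR-16, miR-322, miR-31, miR-221, let-7e and the probe for miR-106a and miR-17, and below them for miR-26a, miR-145, miR-181a and the miR-335 and miR-345 3p arms, while miR-223 had a lower mean at 24 h with overlap. No single miRNA passed the test: edgeR's quasi-likelihood test called 0 of the tested miRNAs in either direction, with a smallest adjusted p of 0.143 for miR-221, miR-29b and miR-223. At an unadjusted p under 0.05 there were 31, with 16 higher at 24 h (8.21%) and 15 lower (7.69%). The groups did not overlap for 51 miRNAs (26.2%), of which 23 were higher at 24 h (11.8%) and 28 lower (14.4%). DESeq2 on the same counts called 18, 9 higher (4.62%) and 9 lower (4.62%), with 37 at an unadjusted p under 0.05. limma on the signals deposited by the authors called 0, with 38 at an unadjusted p under 0.05. For 165 miRNAs the 95% interval from edgeR left no room for a difference of 2-fold in the counts, and for 64 none for 1.5-fold. These counts include background, which pulls differences of low miRNAs towards 0. For miRNAs near background the interval therefore does not exclude such a difference in the miRNA itself. Over all tested miRNAs the median log2 difference was 0.05, and 108 lay above 0 (55.4%).

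**Figure D1:**
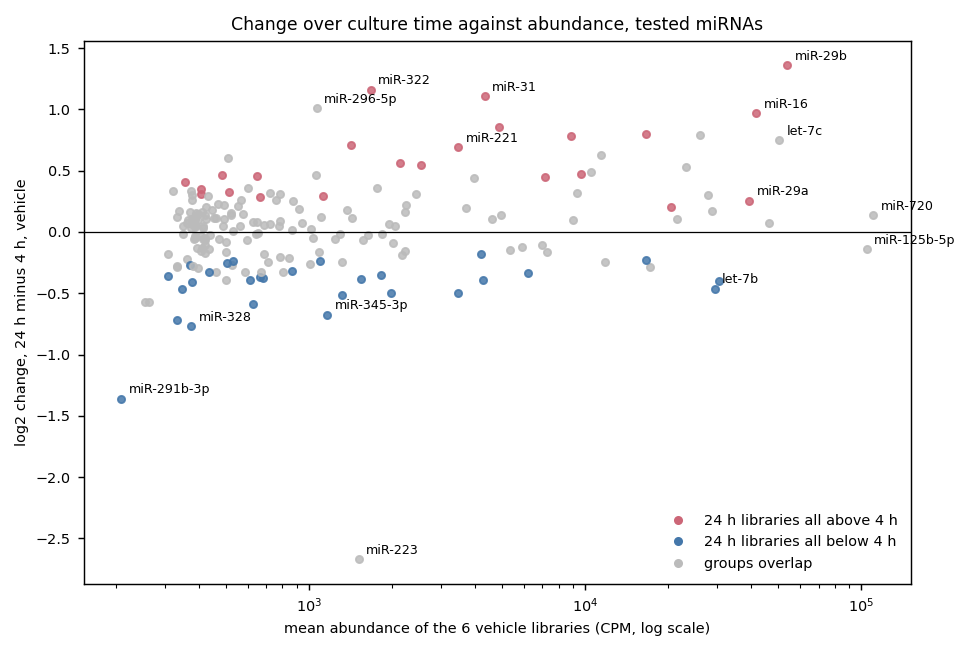
Log2 difference between 24 h and 4 h in vehicle (y axis) against mean abundance of the 6 vehicle libraries (x axis, CPM, log scale) for the tested miRNAs; each point is 1 miRNA, coloured by whether the 3 libraries of each time overlapped. Most points lie close to 0, miR-223 stands at -2.67, and the abundant miR-29b (1.36) and let-7b (-0.46) lie on opposite sides of 0.

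Among the miRNAs higher at 24 h, miR-29b was abundant and had the largest difference. miR-29 family members repress collagens and other matrix genes, and in adipocytes of the mouse their excess dampens insulin-stimulated glucose uptake. The abundance of miR-29b was 16415, 26820.4 and 47631 CPM in the 4 h libraries (replicates 1, 2 and 3) and 66828, 85175 and 81055 CPM in the 24 h libraries, so the groups did not overlap and 4 h replicate 1 was the lowest. The difference was 1.36 on the log2 scale (SE 0.37, 95% interval 0.57 to 2.14), or 2.56-fold, with an adjusted p of 0.143 in edgeR. miR-29c read 1658, 1589.6 and 1927 CPM at 4 h and 2155, 2930.3 and 2543 CPM at 24 h, a log2 difference of 0.56 (SE 0.20) without overlap. miR-29a, with the same seed, was at 35778, 33473 and 38196 CPM and then 47155, 40088 and 40891 CPM, again without overlap but by only 0.25 (SE 0.23). All 3 members of the family thus lay higher in each 24 h library than in any 4 h library, as did 11.8% of all tested miRNAs.

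miR-221 and miR-222 share a seed and a transcript on the X chromosome and repress the cell cycle inhibitor p27, encoded by Cdkn1b. miR-221 gave 2259, 2376 and 3311 CPM at 4 h against 3975, 4702 and 4171 CPM at 24 h, and the lowest 24 h library stood above the highest 4 h library. Its difference of 0.69 (SE 0.19, 1.62-fold) had the smallest p of the miRNAs that were higher (unadjusted p 0.00206, adjusted p 0.143 in edgeR, 0.0083 in DESeq2). miR-222 was at 664, 821 and 1189 CPM and 1211, 1339 and 1147 CPM, with overlap because 4 h replicate 3 exceeded 24 h replicate 3, and a log2 difference of 0.46 (SE 0.22).

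In the miR-15/16 family, whose members restrain cyclins and Bcl2, members lay on both sides of 0. miR-16 had 14389.6, 24797 and 45248 CPM at 4 h, then 47404, 58803 and 59253 CPM at 24 h, a difference of 0.97 (SE 0.38), with 4 h replicate 3 close to the lowest 24 h library. miR-322, the mouse counterpart of human miR-424, was at 499.9, 931 and 1666 CPM and 2057, 2359 and 2538 CPM, 2.24-fold apart (1.16, SE 0.41) without overlap. miR-15a, which shares the seed, was at 20066, 16826 and 19639 CPM and 17639.7, 13908 and 14731 CPM with overlap and a difference of -0.29 (SE 0.22), and miR-15b had 0.30 (SE 0.24). Over the family, 3 of the 5 tested members lay above 0, with a median of 0.30 against 0.05 over all miRNAs, of which 55.4% lay above 0.

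The miR-17-92 cluster and its paralogs promote proliferation and repress Cdkn1a and Bcl2l11. Of the 11 panel probes of these clusters 8 were tested, 7 lay above 0 and 5 did not overlap, with a median of 0.45. Over all tested miRNAs 55.4% lay above 0, 26.2% did not overlap, 11.8% were higher without overlap, and the median was 0.05. The probe that reads miR-106a and miR-17 together read 8840.1, 11769 and 15862 CPM at 4 h and 18723, 22905 and 21891 CPM at 24 h, a difference of 0.80 (SE 0.25, 1.74-fold) without overlap. The probe for miR-20a and miR-20b had 0.45 (SE 0.21), miR-93 0.54 (SE 0.24), miR-19a 0.47 (SE 0.22) and miR-18a 0.46 (SE 0.20), all without overlap. miR-106b had 0.44 (SE 0.32) with overlap, and miR-25, transcribed with miR-93 and miR-106b inside Mcm7, had -0.24 (SE 0.21). miR-19b lay near 0 at 0.11 (SE 0.20), with a sign that depended on the scaling.

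The let-7 family represses growth genes such as Lin28 and Igf1r and accumulates as cells differentiate. All 9 panel probes were tested, 7 lay above 0 with a median of 0.53, 1 was higher without overlap and 1 was lower without overlap. Over all tested miRNAs 55.4% lay above 0, 11.8% were higher without overlap and 14.4% lower, with a median of 0.05. let-7e gave 4626, 6445 and 8472 CPM at 4 h against 10579, 11944 and 11041 CPM at 24 h, a difference of 0.78 (SE 0.26) without overlap. let-7b was lower at 24 h, at 36987, 31526 and 33927 CPM and then 27908, 22535 and 23863 CPM, a difference of -0.46 (SE 0.23) in which each 24 h library was below each 4 h library. let-7c had 16731, 35549 and 60710.1 CPM at 4 h, then 54843, 68798 and 66284 CPM at 24 h. The groups of let-7c overlapped because 4 h replicate 3 stood above 24 h replicate 1, and its difference was 0.75 (SE 0.39). let-7a was at 8239, 15572 and 33456 CPM at 4 h, a range of several-fold between replicates, and 32571, 33429 and 33240.1 CPM at 24 h, where the 3 libraries nearly coincided. Values for let-7a (0.79, SE 0.46), let-7g (0.63, SE 0.35), let-7d (0.53, SE 0.26), let-7f (0.49, SE 0.36), miR-98 (0.20, SE 0.26) and let-7i (-0.12, SE 0.24) all came with overlap. Without vehicle 4 h replicate 3 the let-7a difference was 1.47 (adjusted p 0.0644 in edgeR). Family members differ in few bases outside the seed, so a probe may read its neighbours in part, and single members are uncertain.

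Other miRNAs higher at 24 h came from no shared family. miR-31, which represses the muscle regulator Myf5 in the mouse, read 1101, 2705 and 4423 CPM at 4 h and 4821, 6389 and 6540.1 CPM at 24 h, 2.15-fold apart (1.11, SE 0.38) without overlap. miR-365, a neighbour of miR-193b, was at 2499.5, 2861 and 5063 CPM and 5843, 6276 and 6723 CPM (0.85, SE 0.30), also without overlap. miR-423-5p, cut from an intron of Nsrp1, was at 829, 959.5 and 1445 CPM and 1449, 1956 and 1887 CPM (0.71, SE 0.23), with the highest 4 h and the lowest 24 h library nearly equal but no overlap. miR-296-5p, known for targeting pluripotency factors in mouse embryonic stem cells, had overlapping groups at 437, 549 and 1133 CPM and 1041, 1713 and 1521 CPM (1.01, SE 0.34). miR-804 was low, at 392, 399 and 425 CPM and 487, 634 and 553 CPM (0.46, SE 0.20), and did not overlap.

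**Figure D2:**
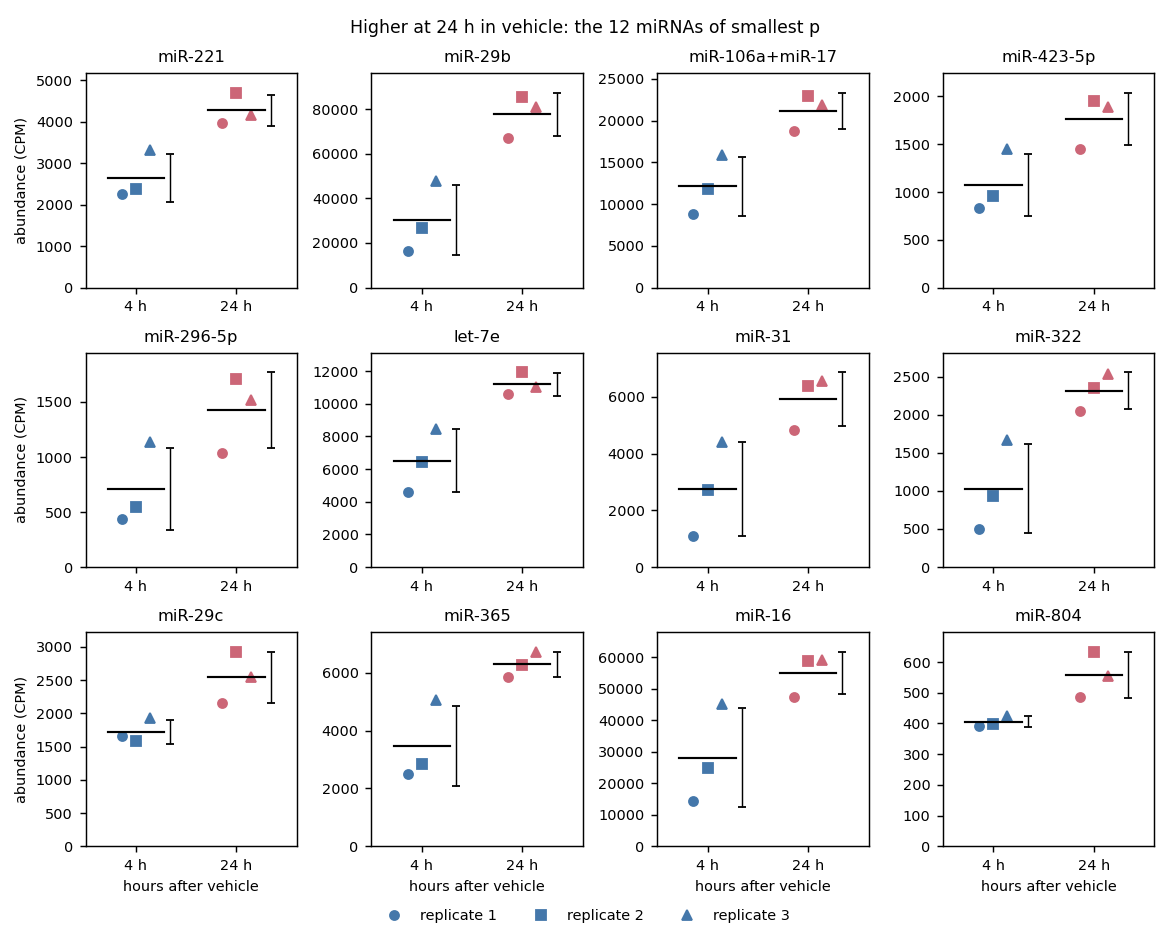
Abundance (CPM, linear axis from 0) of the 12 miRNAs of smallest p with higher values at 24 h, by time after vehicle; symbols are the 3 replicates, horizontal lines the mean, and bars beside them the SD (n = 3). In 11 of the 12 the 24 h libraries lie above all 4 h libraries, and at 4 h replicate 1 is the lowest and replicate 3 the highest in 11 of 12. The 12 were picked by the p of this same contrast, which favours groups that lie apart. Over all tested miRNAs 11.8% were higher without overlap.

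Among the miRNAs lower at 24 h, miR-223 had the largest difference and the largest spread. miR-223 is the miRNA of granulocytes and other myeloid cells. It was at 582, 4809 and 2409 CPM at 4 h, from 92, 832 and 470 counts, and at 828, 222.5 and 209.7 CPM at 24 h, from 136, 53 and 47 counts. Replicate 1 at 4 h stood below replicate 1 at 24 h, so the groups overlapped, and 4 of the 6 libraries were above their negative control threshold. The log2 difference was -2.67 (SE 0.71, 95% interval -4.19 to -1.14), 6.35-fold lower at 24 h, with an adjusted p of 0.143 in edgeR. Without vehicle 4 h replicate 2, the highest library, it was -1.88 (adjusted p 0.369 in edgeR). Of the 9 myeloid and blood markers, miR-142-3p, miR-142-5p, miR-150, miR-146a, miR-451, miR-144 and miR-486 were above the threshold in 0 of 6 libraries and miR-155 in 6 of 6. The summed abundance of that list without miR-223 was 1655 to 2196 CPM at 4 h and 1850 to 1906 CPM at 24 h. In this sum only miR-155 was above the threshold, and the rest were counts near background. In RNA from whole cultures, fewer cells of a type and less RNA per cell cannot be told apart.

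miR-181a, which tunes T cell receptor signalling and glutamate receptor levels in neurons, gave 2569, 2277 and 2122 CPM at 4 h against 1589, 1637 and 1713 CPM at 24 h. The groups did not overlap, and the difference was -0.50 (SE 0.17, 95% interval -0.85 to -0.14). The probe for miR-181b and miR-181d had 0.31 (SE 0.22) with overlap. Of these, miR-181b comes from the same clusters as miR-181a, and miR-181d from a separate locus on chromosome 8. miR-26a, a repressor of Ezh2, was at 1519, 1306 and 1809 CPM and 1004, 1079 and 1169 CPM, a difference of -0.51 (SE 0.18) without overlap, whereas miR-26b, with the same seed, had -0.06 (SE 0.18) and overlapping groups. miR-328, reported to repress Bace1, was at 525, 445 and 441 CPM and 341, 252 and 241 CPM (-0.77, SE 0.26) without overlap, above the threshold in 4 of 6 libraries, 1 of them at 24 h.

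Both arms of miR-335 and miR-345 were tested. miR-335-3p, from an intron of the imprinted gene Mest, had 842, 595 and 820.0 CPM at 4 h, then 505, 487 and 513 CPM at 24 h (-0.58, SE 0.20) without overlap. Its partner arm miR-335-5p had -0.29 (SE 0.31) with overlap. miR-345-3p was at 1367, 1341 and 1573 CPM and 1260.0, 785 and 651 CPM (-0.68, SE 0.25), where 24 h replicate 1 lay just under the 4 h libraries, and miR-345-5p had 0.11 (SE 0.20), of a sign that flipped with limma and with scaling to the most abundant miRNAs, positive controls or housekeeping mRNAs. The ratio of the 3p to the 5p arm within each library overlapped between the times for both hairpins, with changes of -0.30 for miR-335 (two-sided exact permutation p = 0.2) and -0.82 for miR-345 (p = 0.3 in the same exact test).

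The miR-23b cluster, inside Aopep, gave -0.39 (SE 0.15) for miR-23b and -0.37 (SE 0.17) for miR-27b, both without overlap. miR-23b read 1740.2, 1670.5 and 1809 CPM at 4 h and 1296, 1373 and 1325 CPM at 24 h, among the narrowest groups of the named miRNAs. In the paralogous cluster miR-27a had -0.23 (SE 0.18) without overlap, while miR-23a (0.31, SE 0.24) and miR-24 (0.14, SE 0.18), which both clusters encode, overlapped. Of the 5 tested members of these clusters 2 lay above 0, against 55.4% of all tested miRNAs.

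miR-145, typical of smooth muscle and fibroblasts, gave 4455, 3468 and 4202 CPM at 4 h against 3001, 2741 and 2837 CPM at 24 h (-0.50, SE 0.17) without overlap. Of the 7 mesenchymal markers on the panel, miR-143 and miR-145 were above the threshold, and miR-199a-3p, miR-199a-5p, miR-214, miR-10a and miR-10b in 0 of 6 libraries. Its cluster partner miR-143 had 0.06 (SE 0.27) with overlap and a sign that depended on the scaling. The summed abundance of all 7 mesenchymal markers, with those not above the threshold included, was 6202 to 8195 CPM at 4 h and 5718 to 6023 CPM at 24 h. miR-183 (-0.39, SE 0.17) and miR-96 (-0.35, SE 0.16), of a cluster known from sensory epithelia, were also lower without overlap, as was miR-140 (-0.40, SE 0.19), a miRNA of cartilage. Of the 10 epithelial markers 4 were above the threshold in at least one vehicle library, and the other 2, miR-200b (0.02, SE 0.17, of a sign that turned with the scaling) and miR-200c (0.20, SE 0.26), overlapped. The list, with those not above the threshold included, summed to 5110 to 5980 CPM at 4 h and 4706 to 4916 CPM at 24 h. miR-126-3p, the endothelial miRNA within Egfl7, was at 487, 347 and 369 CPM and 310.4, 273 and 286 CPM (-0.47, SE 0.20), above the threshold in 2 of 6 libraries. The part of other cell types in these values was not tested.

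Of the least abundant named miRNAs, miR-136, antisense to Rtl1 in the imprinted Dlk1-Dio3 region, was at 449.3, 416 and 374 CPM and 280.0, 231 and 245 CPM (-0.72, SE 0.24), above the threshold in 2 of 6 libraries. Only 12 of the 61 Dlk1-Dio3 probes were tested, and 7 lay above 0 with a median of 0.05, a number that became 1 of 12 with scaling to the most abundant miRNAs, positive controls or housekeeping mRNAs. miR-291b-3p, of a cluster expressed in embryonic stem cells, came from 40, 71 and 45 counts at 4 h and 28, 23 and 20 at 24 h, above the threshold in 1 of 6 libraries. Its log2 difference of -1.36 (SE 0.49) is a contrast between values near background. miR-378, from an intron of Ppargc1b, was at 759, 763 and 712 CPM and 590.4, 508 and 638 CPM (-0.36, SE 0.16) without overlap.

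**Figure D3:**
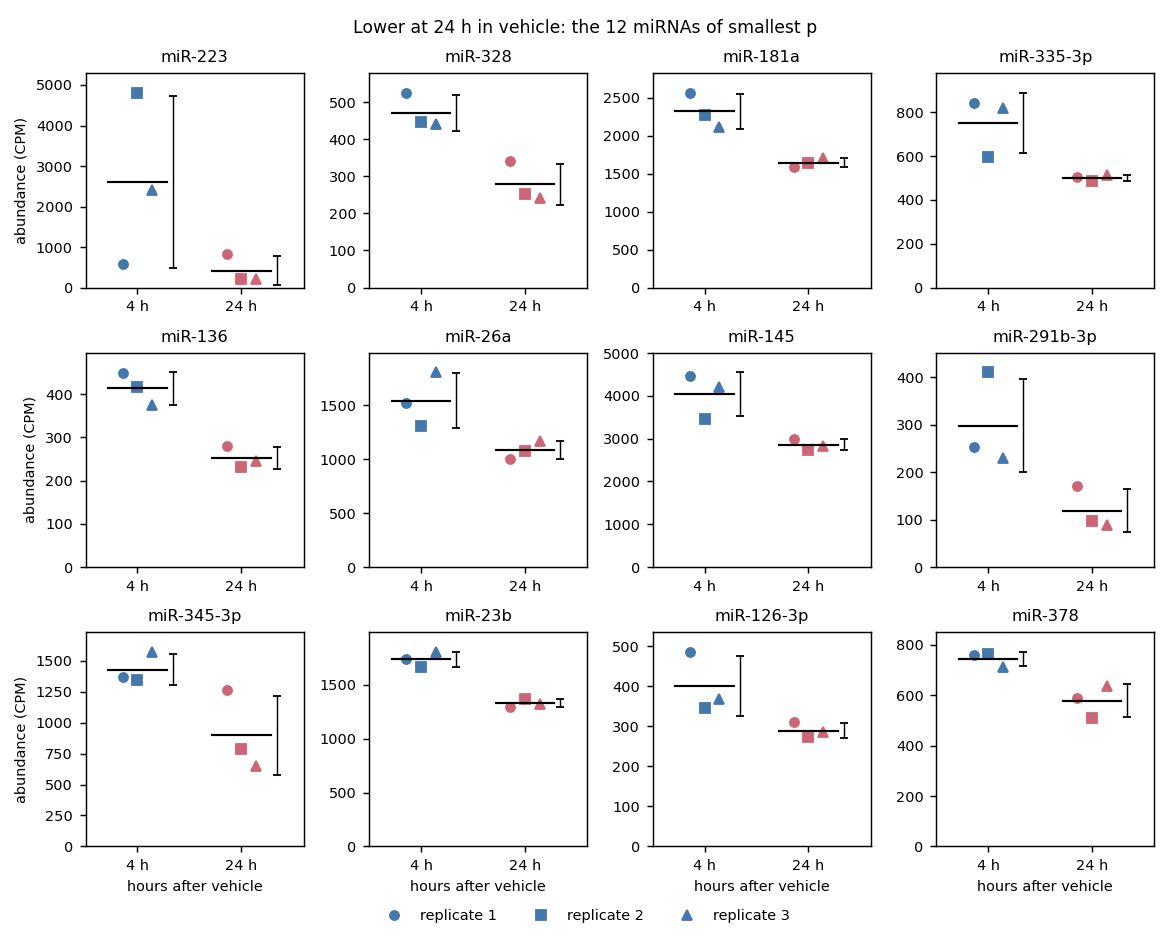
Abundance (CPM, linear axis from 0) of the 12 miRNAs of smallest p with lower values at 24 h, by time after vehicle; symbols are the 3 replicates, horizontal lines the mean, and bars beside them the SD (n = 3). In 11 of the 12 the 24 h libraries lie below all 4 h libraries, and only miR-223 overlaps, with 4 h replicate 1 below 24 h replicate 1. The 12 were picked by the p of this same contrast, which favours groups that lie apart. Over all tested miRNAs 14.4% were lower without overlap.

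Several of the most abundant probes differed by less than their spread. miR-720, a probe that reads a transfer RNA fragment, averaged 105441 ± 12547 CPM at 4 h and 115784 ± 6553 CPM at 24 h (SD, n = 3), and miR-125b-5p, abundant in brain, averaged 110088 ± 13758 and 99826 ± 9609.8 CPM, both with overlap. miR-21 was at 45255 ± 8612 CPM and 47527 ± 1042 CPM, with a difference of 0.07 (SE 0.21) whose sign depended on the scaling. Of like abundance, miR-22 had 38442, 31982 and 33599 CPM at 4 h, then 29289.9, 24919.9 and 24541 CPM at 24 h, a difference of -0.40 (SE 0.21) without overlap. Of the 4 probes that read transfer RNA fragments, miR-1937c (-0.34, SE 0.23) and miR-1274a (-0.32, SE 0.21) were lower without overlap and 2 lay above 0. Among neuronal miRNAs miR-9 had -0.11 (SE 0.19), activity-responsive miR-132 0.18 (SE 0.21) and miR-7a 0.35 (SE 0.19), of which only miR-7a did not overlap. However, miR-7a was above the threshold in only 2 of 6 vehicle libraries, and miR-132 in 4 of 6.

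**Figure D4:**
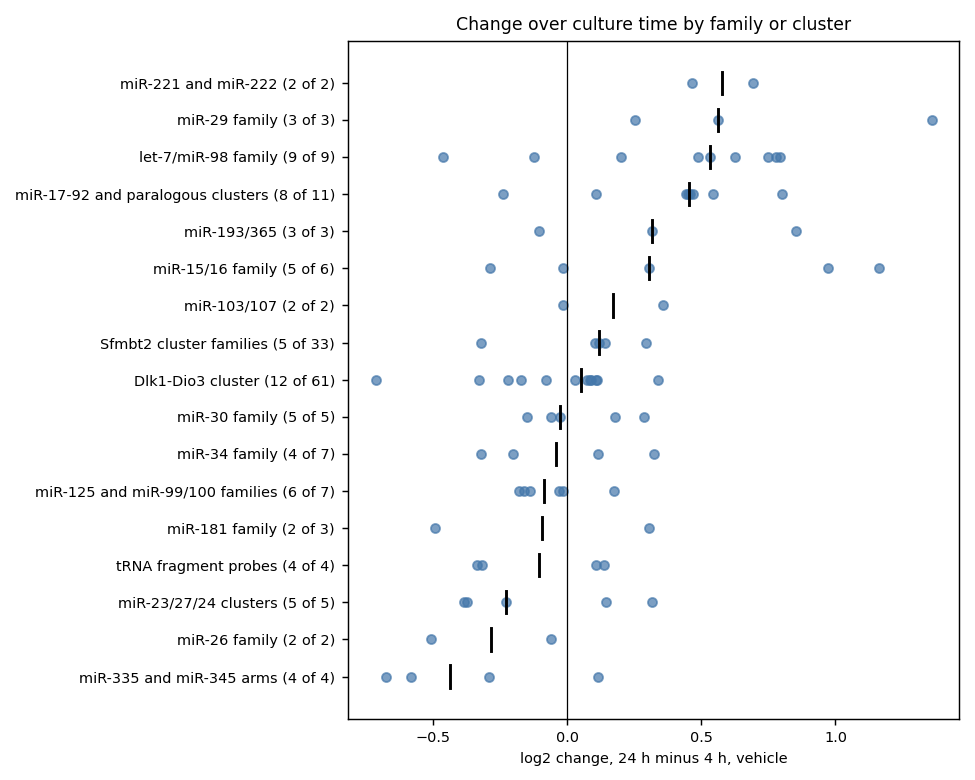
Log2 difference between 24 h and 4 h in vehicle (x axis) for the tested members of each family or cluster, with the number tested of the number on the panel; points are single miRNAs and black bars the median of the list. The miR-29 members and miR-221 and miR-222 all lie above 0, both miR-26 members lie below 0, and the let-7 and miR-15/16 families hold members on both sides. Lists were ordered by their median and none was given a test of its own.

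The clusters allow a comparison that needs no scaling between libraries, because the log2 ratio of a pair of neighbouring miRNAs is taken within each library and only its change is read. Outside chromosome 18, 38 groups of tested miRNAs lay within 10 kb, of which 8 were the arms of 1 hairpin and 30 held at least 2 hairpins. Of their 89 pairs, 12 were arms of one hairpin and 77 were neighbours, and 30 pairs (33.7%) had ratios that did not overlap between the times, against 4875 of 18915 pairs of any tested miRNAs (25.8%). The ratio of miR-15a to miR-16 was 0.48, -0.56 and -1.20 (log2) in the 4 h libraries and -1.43, -2.08 and -2.01 in the 24 h libraries, a change of -1.41. The ratio of let-7b to let-7c moved from 1.14, -0.17 and -0.84 to -0.97, -1.61 and -1.47, a change of -1.40, and that of miR-29a to miR-29b from 1.12, 0.32 and -0.32 to -0.50, -1.09 and -0.99, a change of -1.23. In each of these pairs every 24 h library lay below every 4 h library, and the 4 h libraries were far apart.

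Pairs with tight groups showed smaller changes of the same kind. miR-181a against miR-181b and miR-181d was at 1.61, 1.88 and 1.72 at 4 h and 0.95, 0.76 and 1.09 at 24 h, a change of -0.80. miR-23b against miR-24 was at -1.31, -1.43 and -1.55 and -1.92, -1.95 and -2.01, a change of -0.53. For arms of a single hairpin, miR-34b-3p against miR-34b-5p differed by 0.63, from 0.07, -0.05 and -0.21 to 0.43, 0.63 and 0.63, and miR-423-3p against miR-423-5p by -0.71. These were 2 of 12 arm pairs, and the other 10 overlapped. Further changes without overlap were 0.97 for let-7e against miR-99b and -0.81 for miR-25 against miR-93. The two-sided exact permutation p of each of these ratios was 0.1, the smallest that 3 against 3 libraries can give. Any ratio without overlap has this p, so it adds nothing to the absence of overlap by which these pairs were listed. miR-221 against miR-222, miR-23b against miR-27b and miR-183 against miR-96 overlapped between the times, with changes of 0.20, -0.01 and -0.05. miR-16, miR-24, miR-29b, miR-181a, miR-181b and let-7c are each encoded by more than one cluster, and a probe reads the sum of the copies. The probe for miR-181b also reads miR-181d, whose locus on chromosome 8 is in neither miR-181a cluster.

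The 4 h replicates differed from each other more than the 24 h replicates did. The median SD of log2 CPM was 0.22 at 4 h and 0.15 at 24 h, and 129 of the tested miRNAs (66.2%) had the larger SD at 4 h. For let-7a the SD was 1.01 at 4 h and 0.02 at 24 h, for miR-31 1.02 and 0.24, and for miR-29b 0.77 and 0.18. Pairs of replicates correlated across miRNAs with r of 0.963 to 0.983 at 4 h and 0.986 to 0.995 at 24 h. The chi-square of counts between replicates, divided by its degrees of freedom, was 2.65 to 72.2, so all differed by more than counting noise. Technical differences raise this value too, so it cannot show that the libraries are separate cultures. Each library was counted as a sample because the design text states independent replication.

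Most of the 12 miRNAs of smallest p that were higher at 24 h also had one order among the 4 h replicates. Of the 12 miRNAs of smallest p that were higher, 11 had their lowest 4 h value in vehicle replicate 1 and their highest in replicate 3, with replicate 2 between, as did 48 of all tested miRNAs. The insulin 4 h libraries entered the filter and the spread of the fit but not the vehicle difference. In them replicate 3 lay above replicate 1 for 11 of the 12 and for 100 of all tested miRNAs. The median of that difference was 0.87 on the log2 scale for the 12 and 0.03 over all tested miRNAs. The 12 were picked by a contrast that uses the vehicle 4 h replicates. Deviations from the group mean in same-numbered vehicle and insulin 4 h libraries correlated with r of 0.49, -0.30 and 0.74 (replicates 1, 2 and 3). The insulin replicate difference was 1.90 for miR-322, 1.46 for miR-16 and 1.38 for miR-29b, and 1.92 for let-7a, which is not among the 12. Among the 12 that were lower, the insulin replicate 3 lay above replicate 1 for 3. Across the tested miRNAs the time change in vehicle and the difference between insulin 4 h replicates 3 and 1 correlated with r = 0.44 (rho = 0.24), and with the difference between insulin 24 h replicates 3 and 1 with r = 0.36, a description over probes that share lanes and scaling. Within the 4 h groups the replicate number ran with the lane, so the replicate and the lane cannot be told apart. Without vehicle 4 h replicate 3, whose values for these miRNAs were nearest to those at 24 h, edgeR called 12 miRNAs in place of 0. Without 4 h replicate 1, the farthest from them, it called 0.

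Exact permutation tests of library measures between the times gave p of 0.2 to 1. The mean total was 170867 ± 37626 counts at 4 h and 233457 ± 46791 at 24 h (SD, n = 3, two-sided exact permutation p = 0.2), and the geometric mean of 4 housekeeping mRNAs 3252 ± 256 and 4595 ± 1898 counts (exact permutation p = 0.4). The mean of the negative controls was 37.0 ± 1.32 and 46.4 ± 10.4 counts (exact permutation p = 0.4), and the smallest p this design can give is 0.1. The number of miRNAs above the threshold was 129 to 174 per library at 4 h and 118 to 201 at 24 h.

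The insulin libraries gave the same contrast in cultures that share no library with vehicle, though they share the lane layout. Across the tested miRNAs the time changes in vehicle and in insulin correlated with r = 0.84 (rho = 0.73), with the same sign for 141, as a description over probes. Deviations from the group mean were not independent between the treatments: vehicle and insulin replicates of one number and time correlated across miRNAs with r of 0.49, -0.30 and 0.74 at 4 h and 0.59, 0.50 and 0.31 at 24 h (replicates 1, 2 and 3). Of the 51 miRNAs whose vehicle groups did not overlap, 23 did not overlap in insulin in the same direction (11.8% of those tested) and 0 in the opposite direction. miR-29b had 1.14 (SE 0.37) in insulin, miR-221 0.58 (SE 0.18), miR-16 0.91 (SE 0.38) and miR-31 0.96 (SE 0.38), each without overlap there too. miR-223 had -2.90 (SE 0.74, adjusted p 0.0469 in edgeR), with the insulin groups apart. In insulin 20 miRNAs were higher without overlap (10.3%) and 17 lower (8.72%), and 114 lay above 0 (58.5%). At an unadjusted p under 0.05 there were 27 higher (13.8%) and 13 lower (6.67%). The insulin contrast alone called 7 miRNAs in edgeR (3.59%), 3 higher (1.54%) and 4 lower (2.05%). Without any one of the 12 libraries the number ranged from 0 to 22, and only the removal of vehicle 4 h replicate 3, which gave 10, moved it by less than 1.5-fold. The 3 higher were miR-20a with miR-20b, miR-29c and miR-804, and the 4 lower were miR-26a, miR-223, miR-335-3p and miR-345-3p.

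With the time change averaged over vehicle and insulin, 6 libraries per time, edgeR called 30 miRNAs (15.4%), 19 that rose (9.74%) and 11 that fell (5.64%), and 110 lay above 0 (56.4%). All 12 of the miRNAs with the smallest p for higher vehicle values were among the 19, and 8 of the 12 for lower values among the 11, which is not independent since the average contains the vehicle libraries. The averaged log2 difference was 1.25 (SE 0.26, adjusted p 0.00726 in edgeR) for miR-29b and 0.63 (SE 0.13) for miR-221. It was -0.71 (SE 0.12) for miR-26a, -2.78 (SE 0.51) for miR-223 and -0.84 (SE 0.18) for miR-345-3p, each with an adjusted p of 0.00726 in edgeR. The other miRNAs that rose were let-7d, miR-185, miR-350, miR-709, miR-1983, miR-93 and the probe for miR-20a and miR-20b, with vehicle values of 0.21 to 0.54, of which miR-185 was above the threshold in 0 of 6 vehicle libraries, and the others that fell were miR-96, miR-140 and miR-183. With same-numbered vehicle and insulin libraries of one time as a random block, an alternative chosen after the data were seen, limma on the deposited signals called 14, against 33 without the block (consensus correlation 0.49). The number also rested on single libraries: it was 52 without insulin 24 h replicate 1, 19 without vehicle 4 h replicate 1, 12 without vehicle 24 h replicate 2 or 3, 15 without insulin 4 h replicate 2 and 16 without insulin 24 h replicate 2.

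No miRNA could be called particular to vehicle. The difference between the time change in vehicle and that in insulin was called for 0 miRNAs in edgeR, with 0 at an unadjusted p under 0.05 and a smallest adjusted p of 0.991, and DESeq2 also called 0. The vehicle and insulin values differed, without passing that test, for miR-185 (0.33 and 1.05), miR-103 (0.36 and -0.19), miR-20a with miR-20b (0.45 and 0.99), miR-136 (-0.72 and -0.19) and miR-328 (-0.77 and -0.26). Of these, miR-185 was above the threshold in no vehicle library, and miR-136 and miR-328 only in some. miR-181a had -0.50 in vehicle and -0.18 in insulin, where its groups overlapped, and miR-378 had -0.36 and 0.03. The unadjusted p of these differences was 0.184 for miR-328, 0.198 for miR-181a and 0.0943 for miR-378 in edgeR.

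**Figure D5:**
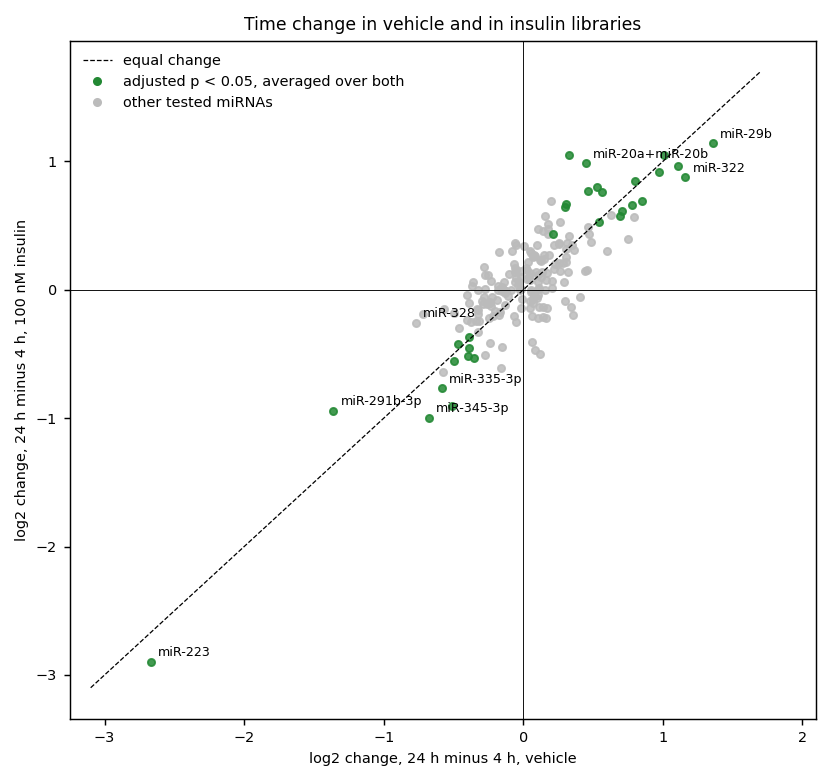
Log2 difference between 24 h and 4 h in the insulin libraries (y axis) against that in the vehicle libraries (x axis) for the tested miRNAs; the dashed line marks equal change, and green points passed an adjusted p of 0.05 when averaged over both treatments. The green points lie in the upper right and lower left, miR-223 is far from the rest at -2.67 and -2.90, and r is 0.84 across miRNAs.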

How the data were processed

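The authors deposited raw NanoString barcode counts per probe and library. Instrument values in the same columns are not whole, so the deposited columns are handled under the unit of estimated counts, rounded before the fit; every probe value was whole, so rounding changed nothing and the count test planned for plain counts was run. The signals deposited by the authors equal the raw count times 1 factor per lane for mouse miRNAs, matching the inverse geometric mean of the 100 probes of highest mean count within 0.00041%. The labels do not name the software.

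Counts were analysed in R 4.3.3 with edgeR 4.0.16 (TMM scaling, quasi-likelihood F test, two-sided, 4 groups in one fit, 8 residual and 6.77 prior degrees of freedom), with Benjamini-Hochberg adjustment over all tested miRNAs and an adjusted p under 0.05 as the call. DESeq2 1.42.0 (local dispersion trend, which it chose itself) and limma 3.58.1 on log2 of the signals were alternatives, beside 4 further scalings, background subtraction, 3 filters, a replicate block and leaving out each library. Intervals are at 95%. Counts include background, which pulls differences of low miRNAs towards 0. Single-value tests were exact permutation tests. The fit was tested on simulated data.

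Named miRNAs were the 12 of smallest p per direction in vehicle, every miRNA called by DESeq2 or in the averaged or insulin contrast, the 10 most abundant, and members of the family and cluster lists. Members and lists were chosen with earlier results of these data known. Same-numbered 4 h and 24 h libraries did not deviate together (r of -0.03, -0.21 and 0.09), so the numbers were not used as pairs across time in the main fit. Differently numbered libraries gave r of -0.25 to 0.31, so this check cannot exclude pairing. Vehicle and insulin libraries of one number and time deviated together in 5 of 6 cases, which a random block in limma, added later, takes up. Mature sequences came from RefSeq for 31 of 33 looked-up miRNAs; miR-328 and miR-145 are given by name only. Clusters use the 177 tested miRNAs with a locus off chromosome 18; 4 with a locus only there were left out and 14 matched no locus.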

Additional observations from a re-analysis of the deposited data

Results flagged for a closer look

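Outside the mouse miRNAs, 5 of the 33 viral miRNA probes met the same filter, above the negative control threshold in at least 3 of the 12 libraries, although the cells are not labelled as infected. The highest, mghv-miR-M1-5, gave 115, 119 and 110 counts in the 4 h vehicle libraries and 112, 214 and 174 at 24 h, above the threshold in all 6. mghv-miR-M1-9 gave 33, 112 and 75 counts at 4 h and 39, 32 and 19 at 24 h. The other three were mcmv-miR-m01-2, mcmv-miR-m01-3 and mghv-miR-M1-4, at 49 to 108 counts. The origin of these counts was not tested.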

How the results depend on the processing

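The number of calls in vehicle, 0 in edgeR, was 18 with DESeq2, 10 with a replicate block, 9 with scaling to the 100 most abundant probes, 7 among miRNAs averaging 100 or more counts and 1 with positive controls (miR-223); it was 0 with RLE size factors, housekeeping mRNAs, limma, background subtraction, no filter, the filter within vehicle and vehicle libraries alone, and 0 to 12 on leaving out each library, with 12 only without vehicle 4 h replicate 3. The insulin contrast, 7 in edgeR, gave 2 with RLE size factors, 15 with the 100 most abundant, 2 with positive controls, 16 with housekeeping mRNAs, 22 with DESeq2, 0 with limma, 2 after background subtraction, 13 among miRNAs averaging 100 or more counts, 1 with no filter, 12 with the filter within vehicle, 18 with the replicate block and 0 to 22 on leaving out each library. The averaged contrast, 30 in edgeR, gave 17 with positive controls, 17 with housekeeping mRNAs, 9 with no filter and 12 to 52 on leaving out each library. The difference between the treatments gave 0 throughout. The cause of these changes was not tested. The replicate block treats same-numbered 4 h and 24 h libraries as pairs, and whether they are pairs was not settled. With same-numbered vehicle and insulin libraries of one time as a random block in limma, chosen after the data were seen, there were 1 call in vehicle (miR-29b) and 14 in the averaged contrast, and single values were those of limma without it.

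Scaling moved the median of all miRNAs from 0.05 to -0.08 with the 100 most abundant, -0.08 with positive controls and -0.13 with housekeeping mRNAs. Medians of the let-7, miR-29, miR-15/16, miR-17-92 and miR-26 lists and of miR-221 with miR-222 kept their sign under the 4 scalings tried; the Dlk1-Dio3 median turned to -0.10, -0.08 and -0.13 and the neuronal median to -0.06, -0.04 and -0.05. Single values turned sign under the 3 scalings, in the order above, for miR-21 (-0.039, -0.061, -0.092), miR-423-3p (-0.097, -0.1, -0.15), miR-345-5p (-0.024, -0.014, -0.075), miR-19b (-0.00708, -0.023, -0.049), miR-143 (-0.017, -0.063, -0.13) and miR-200b (-0.13, -0.11, -0.13). miR-720 turned to -0.00652 with the 100 most abundant and -0.012 with housekeeping mRNAs, and miR-24 to -0.025 with the latter. With limma miR-21 was -0.038, miR-423-3p -0.097, miR-345-5p -0.029 and miR-19b -0.00496. miR-200b was -0.098 with limma and -0.018 after background subtraction. With the filter within vehicle miR-143 was -0.018, miR-200b -0.086, miR-21 -0.018 and miR-423-3p -0.067, and the latter -0.049 and miR-200b -0.069 among miRNAs averaging 100 or more counts. On leaving out each vehicle library the range was -0.084 to 0.23 for miR-21, -0.067 to 0.066 for miR-423-3p, -0.051 to 0.21 for miR-19b, -0.16 to 0.031 for miR-26b, -0.24 to 0.031 for let-7i, -0.20 to 0.47 for miR-143 and -0.12 to 0.084 for miR-200b, each crossing 0: without vehicle 4 h replicate 1 for the first 3, 24 h replicate 1 for miR-26b and 4 h replicate 3 for let-7i, 4 h replicate 1 or 2 for miR-143 and 4 h or 24 h replicate 3 for miR-200b. Background subtraction moved miR-291b-3p to -7.09. Depth, 142158 to 269357 counts per library, and thresholds of 53.3 to 118 counts limit miRNAs near background.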
